A study of Mus musculus with 5 samples.

Results

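The genes described are those of the cytosolic ribosomal proteins, the proteins that, together with ribosomal RNA, make up the ribosomes of the cytoplasm. Members were the rows of the count table whose symbol is Rpl or Rps followed by a number, with or without a paralog letter, or is Rplp0, Rplp1, Rplp2 or Rpsa. The rule found 84 of the 23478 genes in the table, 51 of the large subunit (Rpl and Rplp genes) and 33 of the small subunit (Rps genes and Rpsa), on 19 chromosomes. They were measured by RNA sequencing in 5 libraries of GFP-sorted lung cells, labelled as fibroblasts, from mice at P6. All mice carried Gli1-CreERT2 and the Rosa26-eGFP reporter, and all pups were given tamoxifen at 100 µg on each of P0 and P1. The 2 control libraries came from mice with 1 floxed and 1 wild-type Igf1r allele, and the 3 Igf1r-deleted libraries from mice in which both alleles were floxed, so that the comparison is of cells that can lose 1 copy of the IGF1 receptor gene with cells that can lose both. Cre was active only in cells that expressed Gli1 when tamoxifen was given, and GFP marks those cells and their progeny. Mice were of mixed background and both sexes, and the number of pups behind each library is not given in the sources used here.

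Each ribosome contains, with few exceptions, a single copy of each ribosomal protein, and growing cells spend much of their transcription on these genes. Their mRNAs begin with a C followed by an unbroken run of pyrimidines, the 5′ terminal oligopyrimidine or TOP motif, through which mTOR signaling, a pathway downstream of the insulin and IGF1 receptors, controls how well they are translated. The family has left many processed pseudogenes in mammalian genomes, and many members host small nucleolar RNA genes in their introns. A few members have paralogs, such as Rpl3l and Rpl10l, which are known from muscle and testis, respectively.

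The TOP motif was looked for at the start sites that RefSeq gives on GRCm38.p6, as a C followed by at least 5 C or T on the transcribed strand, within 20 bases of a start. RefSeq start regions were at hand for 63 members, and 41 of them (65.1%) held such a tract, against 32.8% of the 27025 genes with a start region. A C followed by at least 7 pyrimidines stood near the start of 30 of the 63 members (47.6%), against 14.5% of all genes. Below, the 10 bases before the start and the first 20 transcribed bases are shown for members of both subunits whose values are given later, with the tract in capitals.
Rps6: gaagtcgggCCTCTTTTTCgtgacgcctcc
Rps27: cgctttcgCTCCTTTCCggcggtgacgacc
Rps18: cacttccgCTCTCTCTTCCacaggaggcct
Rps10: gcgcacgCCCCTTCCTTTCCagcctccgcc
Rpl35: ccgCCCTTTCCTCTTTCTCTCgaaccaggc
Rpl18: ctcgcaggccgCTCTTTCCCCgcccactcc
Rplp2: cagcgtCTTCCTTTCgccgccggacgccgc
Rpl38: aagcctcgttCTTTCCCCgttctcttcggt
The Rps6 window lies at chr4:86857348-86857377, that of Rps27 at chr3:90213629-90213658, that of Rps18 at chr17:33955646-33955675, that of Rps10 at chr17:27635225-27635254 and that of Rpl35 at chr2:39005112-39005141, all on the minus strand. Those of Rpl18 (chr7:45718061-45718090), Rplp2 (chr7:141447641-141447670) and Rpl38 (chr11:114668570-114668599) are on the plus strand. In Rps6, Rps27, Rps18, Rps10, Rpl35 and Rplp2 the tract spans the annotated start, and in Rpl38 it begins at the first transcribed base.

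Paralogs and core members are shown side by side for contrast. The windows of Rpl7l1 (chr17:46782637-46782666, minus strand), Rpl10l (chr12:66284382-66284411, minus strand) and Rps4x (chrX:102189372-102189401, minus strand) held no such tract, and that of Rpl22l1 (chr3:28805498-28805527, plus strand) held one just after the start.
Rpl7l1: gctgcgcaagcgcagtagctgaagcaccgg
Rpl10l: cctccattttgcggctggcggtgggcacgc
Rps4x: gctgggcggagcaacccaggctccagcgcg
Rpl22l1: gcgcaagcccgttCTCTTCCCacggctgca
Of the 41 members with a tract, all 41 were tested and 39 had a log2 fold change below 0 (median −0.35). Of the 22 without one, 19 were tested and 17 lay below 0 (median −0.41). The core binding word of ETS family factors, CCGGAAG on either strand, was found between 250 bases before and 50 bases after the start in 26 of the 63 members (41.3%), against 9.93% of all genes, 37.5% of 64 ribosome biogenesis genes and 35.8% of 67 mitochondrial ribosomal protein genes. A word bound by YY1, AAGATGG on either strand, was found in 10 of the 63 (15.9%), against 7.28% of all genes, 4.69% of the ribosome biogenesis genes and 19.4% of the mitochondrial ribosomal protein genes. The members thus shared these words with other lists. Neither a match nor its absence was tested against the counts.

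The libraries held 35116766 to 37597857 counts. Within a group, pairs of libraries differed far more than counting noise allows (23.2 to 50.7 times, as chi-square over its degrees of freedom). Igf1r, which checks the labels, measured 324 and 324 CPM (counts scaled to a common library size with edgeR's TMM factors) in controls and 140, 177 and 194 CPM after deletion (log2 fold change −0.93 ± 0.14, SE). The fibroblast markers Col1a1, Col1a2 and Col3a1 measured 5211 to 7112, 5527 to 7369 and 6983 to 9795 CPM. Nothing in the sources says whether libraries of a group came from separate litters, so p-values measure the spread between these libraries, and with 2 libraries against 3 no permutation test of a single value can go below p = 0.1.

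The members took a small share of the counts. They held 0.660% and 0.597% of all counts in the controls and 0.562%, 0.477% and 0.460% in the Igf1r-deleted libraries. The mean share was 0.628% ± 0.0447 (SD, n = 2) in controls and 0.4995% ± 0.0543 (SD, n = 3) after deletion, and the groups did not overlap. The median member had 1175 and 1076 counts in the controls and 940, 910.5 and 846 counts in the Igf1r-deleted libraries. Only 41 of the 84 members averaged 1000 counts or more, 9 averaged under 100 and 4 under 10. Rpl26, a large subunit protein gene, had a count of 0 in all 5 libraries, which allows up to 3 counts in each (counting error only). Rpl3l had 0 counts in both controls and 2 counts in each Igf1r-deleted library, and Rpl10l had 2 and 1 counts in the controls and 3, 1 and 3 in the Igf1r-deleted libraries. These 3 genes did not pass the filter on low counts, and the other 81 were tested among 15298 genes.

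Per length of exon, the members spread over nearly the whole range of expressed genes. The median tested member stood at 15.6 CPM per kb of exon, and the median of all genes tested was 3.90 CPM per kb. Within the order of all genes tested, 26 members ranked above the 90th percentile and 16 below the median gene. The highest tested member exceeded the lowest 5799-fold on this scale, although the finished ribosome holds their products in nearly equal numbers. The order of the members was much the same in every library, with Spearman's rho of 0.989 to 0.995 over 83 genes in the 10 pairs of libraries. These pairs share the gene models and the counting method, and the values are across genes, which are not replicates.

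**Figure D1:**
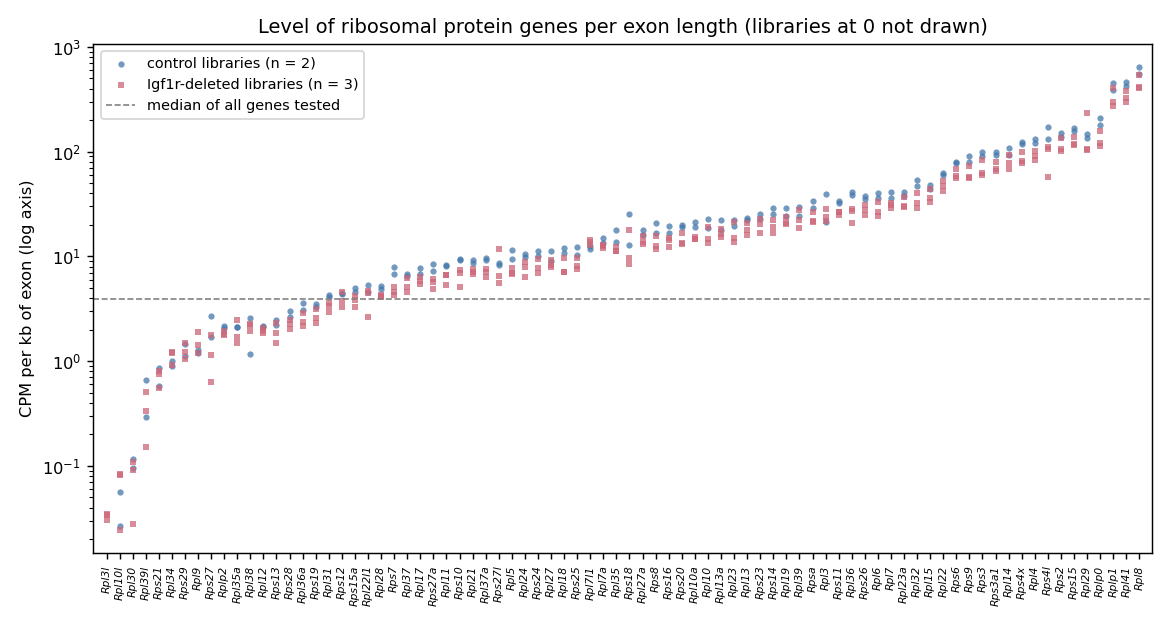
Level of 80 members with a count, in CPM per kb of exon on a log axis, ordered by mean level, with 1 point for each library and a dashed line at the median of all genes tested. Mean levels run from 0.0198 CPM per kb for Rpl3l to 512 CPM per kb for Rpl8, and the spread between genes is far wider than that between libraries.

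The highest level per length was that of Rpl8, a large subunit protein at the peptidyl transferase center (chr15:76904078-76906314 of mm10, plus strand), with a mean of 512 CPM per kb. Its 5 libraries measured 871 and 754 CPM in controls and 735, 567 and 551 CPM after deletion, and it alone took 12.3% to 12.8% of the counts of the family. Rpl41, which encodes the smallest protein of the family, followed at 378 CPM per kb, with 545 and 491 CPM in controls and 440, 379 and 351 CPM after deletion. Both genes were lower in every Igf1r-deleted library than in either control. Rplp1 and Rplp0 encode proteins of the acidic stalk that recruits elongation factors, and they came next at 363 and 156 CPM per kb. Rpl29 was the fifth, at 145 CPM per kb, so that these 5 genes held 36.0% of all counts of the family.

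The lowest tested level was that of Rpl30, a large subunit protein gene on chr15:34440505-34443640 whose span also holds a small nucleolar RNA gene, with 10 and 13 counts in the controls and 3, 13 and 10 counts in the Igf1r-deleted libraries. Its mean was 0.0883 CPM per kb. Rpl39l, the paralog of Rpl39 that is known from the testis, stood at 0.390 CPM per kb and the small subunit gene Rps21 at 0.709 CPM per kb. Rps21 measured 0.691 and 0.464 CPM in controls and 0.652, 0.453 and 0.612 CPM after deletion. Rpl34 (1.05 CPM per kb) and Rps29 (1.27 CPM per kb) completed the lowest 5. In all of these the groups overlapped, and between 9.80 (Rpl30) and 101.4 (Rpl34) counts a library on average lay behind them.

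The members differ in structure from the median gene. The mRNA of a member, taken as its main transcript in GENCODE M21, had a median of 886 bases in 5 exons, against a median of 3040 bases over all genes tested. In the median member, 54.3% of the 31-base words of this mRNA also occurred in the transcripts of another annotated gene, against 0.590% in the median gene tested. A pseudogene was counted as sharing words with a member if the shared words made up at least 25% of those of whichever gene had fewer. By this cut at least 1 pseudogene shared words with 79 members, with a median of 5 pseudogenes. A small nucleolar RNA gene lay within the span of 30 members. The study aligned its reads of 150 bases to the genome with Bowtie2, which places a read in 1 unbroken stretch. Of the possible positions of a 150-base read on a member's mRNA, 29.4% lay within a single exon in the median member, against 65.0% in the median gene tested. How reads that fit several copies or cross exon borders were counted is not given in the sources used here, and their part in the levels was not tested. Counts of members with many shared words are uncertain to that extent.

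Across the 83 members with a count, these features went with the level to differing degrees. Spearman's rho between the log2 level per kb and the share of shared words was −0.0047 (Pearson's r = 0.048), and that with the share of read positions within 1 exon was 0.16 (r = 0.083). The median length of a member's exons went with the level by rank (rho = 0.47) but not linearly (r = −0.044), and the single-exon genes Rps4l and Rpl10l, with by far the longest median exon, stood near the top and the bottom of the levels. Over 14505 tested genes with these features, rho with the median exon length was 0.028. Single members went both ways. Rps27 had 0% of the positions of a 150-base read on its mRNA of 345 bases within 1 exon, and 98.7% of its words were shared. It measured 2.82 and 1.77 CPM in controls and 1.84, 0.654 and 1.20 CPM after deletion. Rpl36 also had 0% of positions within 1 exon and 94.1% of shared words, but stood at 31.1 CPM per kb. Rps3, chosen after its values were seen, shared 8.95% of its words and measured 443 and 411 CPM in controls and 375, 278 and 269 CPM after deletion. Rpl39l shared only 2.19% of its words but stood at 0.390 CPM per kb.

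The study sequenced these cells to ask whether myofibroblasts positive for PDGFRα need IGF1R signaling to differentiate and divide. Nearly the whole family stood lower after deletion, although no member passed the adjusted threshold in the main test. Of the 81 tested members, 76 had a log2 fold change below 0, against 47.7% of all genes tested. All 3 Igf1r-deleted libraries lay below both controls in 57 members, against 14.9% of all genes, and above both in 1 member, Rpl7l1, against 16.0% of all genes. At an unadjusted p under 0.05 in edgeR's quasi-likelihood test, 42 members were lower, against 6.75% of all genes, and 0 were higher, against 5.65% of all genes. No member passed the threshold of 0.05 after Benjamini-Hochberg adjustment over all genes (lowest adjusted p = 0.354), nor did any other gene (0.00% of all genes). DESeq2's Wald test, run as an alternative, gave 6 members an adjusted p under 0.05, all of them lower (among them Rpl10a, Rpl5, Rps7 and Rpl4), of the 74 for which it gave a value, against 1.23% of all genes, and 0 higher, against 0.477% of all genes. The count of 42 rests on the libraries used, since leaving out control replicate 1 gave 16 and leaving out Igf1r-deleted replicate 1 gave 59.

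The size of the difference was modest and similar from gene to gene. The median log2 fold change of the members was −0.38, with quartiles of −0.47 and −0.28, and that of all genes tested was 0.015. With library totals in place of TMM factors the median of the members was −0.31 and that of all genes 0.088, and the split of all genes at an unadjusted p under 0.05 moved from 1032 lower and 865 higher to 744 lower and 1343 higher. In sum, the members measured 6865 and 6092 CPM in controls and 5723, 4505 and 4499 CPM after deletion, a ratio of the group means of 0.758. A log2 fold change of −0.50 or less was seen in 12 members, one between −0.50 and −0.25 in 55, one between −0.25 and 0 in 9. In RNA from a sorted population, fewer cells of one type and less RNA per cell cannot be told apart.

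**Figure D2:**
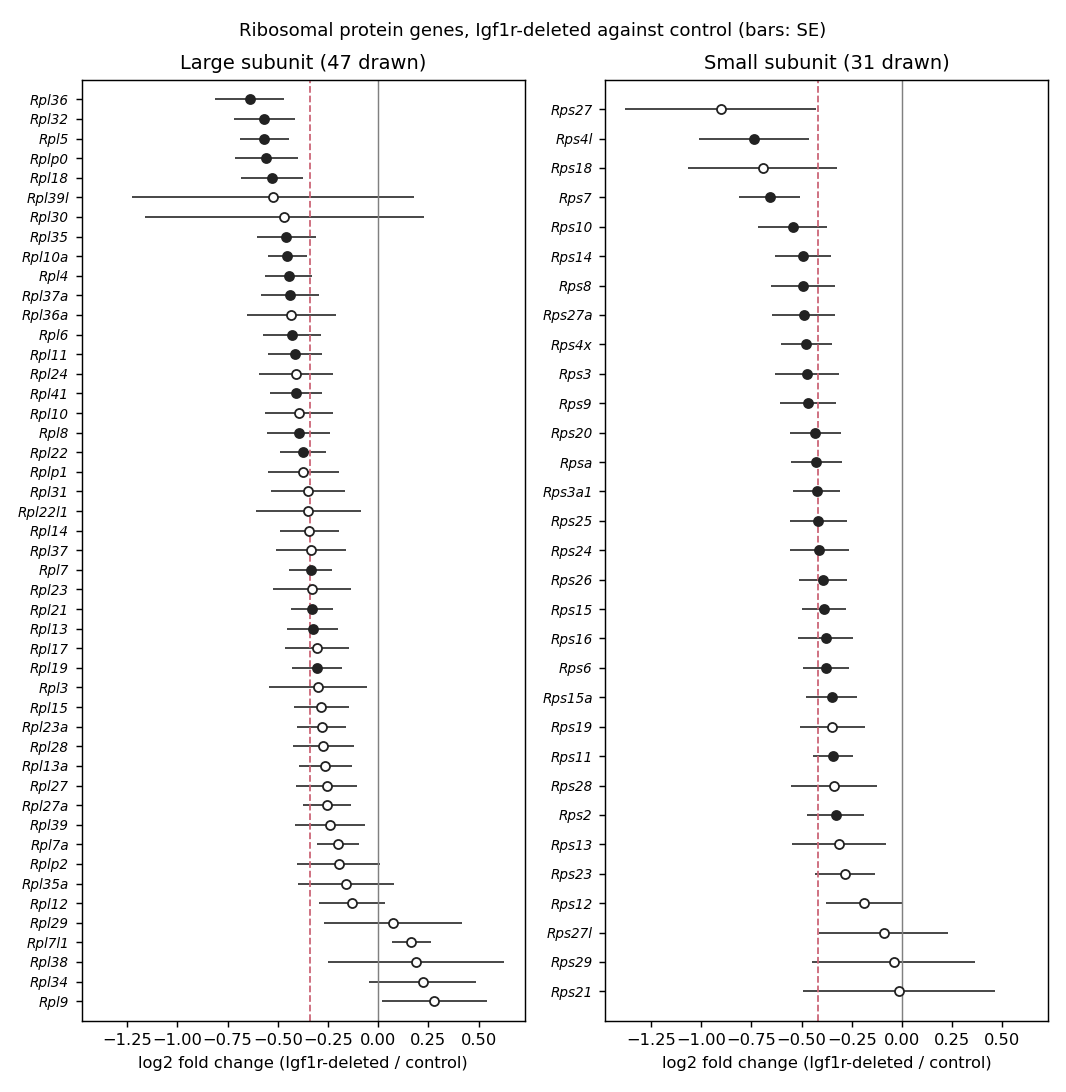
Log2 fold change (Igf1r-deleted over control) of 78 tested members by subunit, with bars for the standard error, filled points for an unadjusted p under 0.05, a dashed line at the median of the subunit over all its tested members and a grey line at 0. All 31 small subunit genes drawn and 42 of the 47 large subunit genes drawn lie left of 0, and no adjusted p was under 0.05.

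Most genes of both subunits stood lower. Among the 48 tested large subunit genes, 43 lay below 0, 32 did not overlap between the groups and were lower, and 19 were lower at an unadjusted p under 0.05 (median −0.34). Among the 33 small subunit genes, all 33 lay below 0, 25 did not overlap and were lower, and 23 were lower at an unadjusted p under 0.05 (median −0.42). Over all genes tested, 14.9% did not overlap and were lower, and 6.75% were lower at an unadjusted p under 0.05. The subunits were not tested against each other. The summed CPM of the large subunit over that of the small subunit was 1.497 and 1.48 in controls and 1.59, 1.53 and 1.62 in the Igf1r-deleted libraries, and without Rpl29 it was 1.44 and 1.42 against 1.47, 1.46 and 1.55. The Igf1r-deleted libraries lay above both controls either way, and the nearest of them lay closer to the controls than to the highest of its own group.

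Among the large subunit genes, Rplp0, Rplp1 and Rplp2 form the stalk. Rplp0 measured 344 and 297 CPM in controls and 262, 202 and 190 CPM after deletion, with no overlap between the groups. Its log2 fold change was −0.56 ± 0.16 (SE; adjusted p = 0.354 in edgeR's quasi-likelihood test). Rplp1 measured 225 and 195 CPM in controls and 202, 136 and 148 CPM after deletion, so that Igf1r-deleted replicate 1 lay between the controls. Rplp2, at 4.49 and 4.26 CPM against 4.05, 3.67 and 3.73 CPM, differed little (−0.20 ± 0.21, SE), although its groups did not overlap either.

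Rpl5 and Rpl11 bind the 5S RNA and, when free of ribosomes, the p53 regulator MDM2. Rpl5 measured 45.4 and 37.1 CPM in controls and 30.1, 27.1 and 26.5 CPM after deletion (−0.57 ± 0.12, SE, adjusted p = 0.354 with edgeR). DESeq2 gave it a log2 fold change of −0.58 and an adjusted p of 0.0233. Rpl11 measured 22.5 and 21.7 CPM in controls and 17.7, 17.7 and 14.3 CPM after deletion (−0.41 ± 0.14, SE). In both genes each Igf1r-deleted library lay below each control. The span of Rpl5 holds 3 small nucleolar RNA genes, its exons overlap those of Fam69a, and 94.8% of the words of its mRNA are shared, so that its counts are among the less certain.

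The other large subunit genes with the most negative log2 fold changes were Rpl36 and Rpl32. Rpl36 measured 14.7 and 15.7 CPM in controls and 10.8, 7.92 and 10.5 CPM after deletion (−0.64 ± 0.17, SE). Rpl32 measured 51.9 and 45.1 CPM in controls and 38.8, 31.3 and 28.2 CPM after deletion (−0.57 ± 0.15, SE). Neither overlapped between the groups, and both had an adjusted p of 0.354 with edgeR. Rpl10, which joins the large subunit in a late step of its assembly, measured 46.6 and 38.3 CPM in controls and 39.2, 27.6 and 30.02 CPM after deletion, with Igf1r-deleted replicate 1 again between the controls.

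Of the other members whose start is shown above, Rpl18 measured 48.6 and 43.6 CPM in controls and 38.6, 28.6 and 28.6 CPM after deletion (−0.53 ± 0.15, SE). Rpl35 measured 22.2 and 17.1 CPM against 15.3, 13.9 and 13.8 CPM (−0.46 ± 0.15, SE), and the small subunit gene Rps10 measured 21.4 and 22.01 CPM against 16.97, 16.0 and 11.7 CPM (−0.54 ± 0.17, SE). None of these overlapped between the groups. The exons of Rpl35 overlap those of Arpc5l and Wdr38, and those of Rps10 overlap the read-through gene RPS10-NUDT3.

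Of the small subunit genes, Rps6 encodes the substrate of the S6 kinases that act downstream of mTOR. It lies on chr4:86854660-86857412 of mm10, on the minus strand. Rps6 measured 127 and 123 CPM in controls and 108, 88.8 and 91.9 CPM after deletion (−0.38 ± 0.11, SE, adjusted p = 0.354 with edgeR). The groups of Rps6 did not overlap. Rpsa, whose product is also known as a laminin receptor, measured 106 and 91.3 CPM in controls and 83.3, 69.3 and 67.7 CPM after deletion (−0.43 ± 0.13, SE), again without overlap.

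Rps19 and Rps26 are among the genes that are mutated in Diamond-Blackfan anemia. Rps19 measured 15.5 and 16.5 CPM in controls and 14.7, 10.8 and 12.2 CPM after deletion (−0.35 ± 0.16, SE). Rps26 measured 58.0 and 54.9 CPM in controls and 48.2, 38.4 and 42.3 CPM after deletion (−0.39 ± 0.12, SE). In both, replicate 1 was the highest of the Igf1r-deleted libraries and lay below the controls. Rps7, another gene of this disease, was the fourth most negative member, with 13.6 and 16.0 CPM in controls and 9.29, 10.2 and 8.57 CPM after deletion (−0.66 ± 0.15, SE, adjusted p = 0.354 with edgeR). Its groups did not overlap, and DESeq2 gave an adjusted p of 0.0290. Rps27 had the most negative value of all (−0.90 ± 0.47, SE), on 26 to 98 counts a library and with overlapping groups.

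The libraries did not fall into 2 even groups. Over the 75 members with a mean count of at least 100, the median of the log2 deviation from a gene's own mean was 0.30 and 0.15 in the controls and 0.022, −0.28 and −0.20 in the Igf1r-deleted libraries. Igf1r-deleted replicate 1 was therefore nearest to the controls, and it was the highest of its group in 68 of the 81 tested members. It still lay below both controls in 61 of them. Replicates 2 and 3 both lay below both controls in 70. Control replicate 1 exceeded control replicate 2 in 64 members. Igf1r itself was lowest in Igf1r-deleted replicate 1, at 140 CPM, so the order of these libraries by Igf1r was not their order by ribosomal protein genes.

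**Figure D3:**
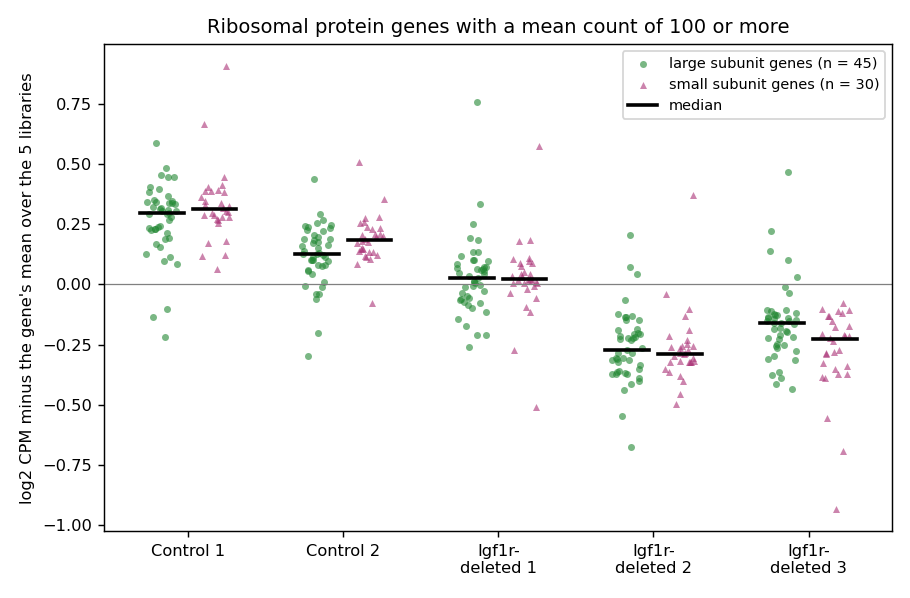
Deviation of log2 CPM from a gene's mean over the 5 libraries, for the 75 members with a mean count of at least 100, with circles for 45 large subunit genes, triangles for 30 small subunit genes and bars for medians. Medians run from control replicate 1 (0.30 over both subunits) to Igf1r-deleted replicate 2 (−0.28), and Igf1r-deleted replicate 1 lies close to 0.

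Most members moved together across the libraries. After the family's median deviation was taken off, 62 of these 75 members stayed within 0.25 on the log2 scale in every library, and only 6 went past 0.50 in any (Rps18, Rps4l, Rpl9, Rpl34, Rpl29 and Rps27l). Rps18, a small subunit protein gene on chr17:33951999-33956001 of mm10, had the widest range of departures over the 5 libraries (1.19 on the log2 scale), although Rps4l and Rpl29 went further from the family in a single library. It measured 62.8 and 31.7 CPM in controls and 23.5, 43.3 and 20.7 CPM after deletion. The controls thus differed from each other by more than the means of the groups did, and Igf1r-deleted replicate 2 lay between them (−0.69 ± 0.37, SE). In Rps18, 90.8% of the words of the mRNA are shared with other genes.

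Rpl29 departed through a single library. It measured 165 and 152 CPM in controls, 264 CPM in Igf1r-deleted replicate 1 and 117 and 119 CPM in the other two. Its log2 fold change was 0.072 with all libraries and −0.43 without Igf1r-deleted replicate 1. In all, 33 pseudogenes share words with Rpl29 by the cut of 25% given above. Rpl3, chosen after its values were seen, measured 125 and 67.7 CPM in controls and 69.5, 76.1 and 89.3 CPM after deletion, so that control replicate 1 stood alone (−0.30 with all libraries, 0.20 without that control).

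**Figure D4:**
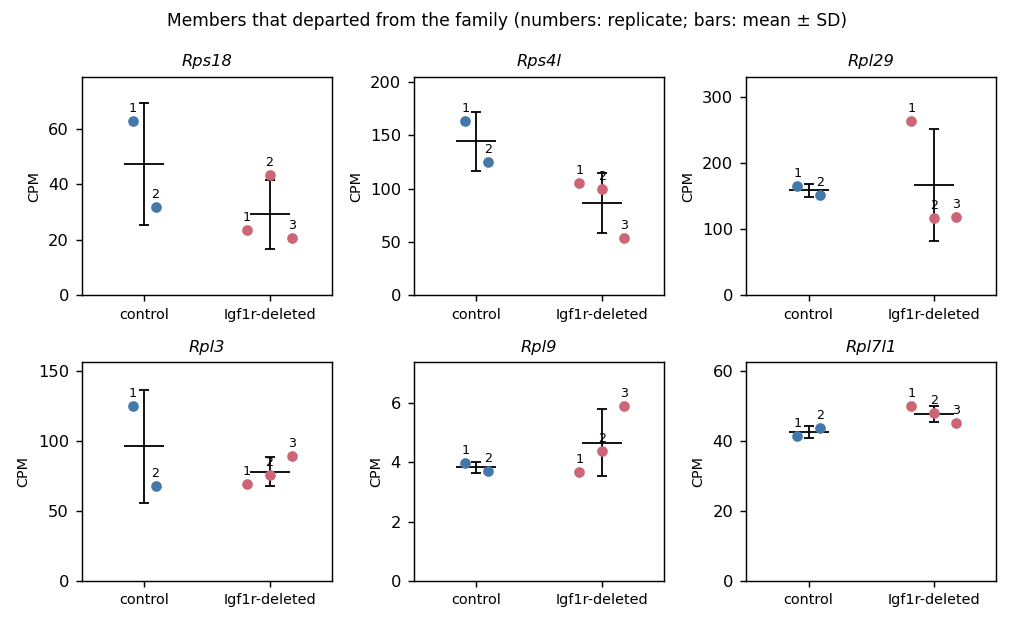
CPM in each library for 6 members with large departures from the family, with points numbered by replicate and bars for the mean ± SD of the 2 control and 3 Igf1r-deleted libraries, on axes from 0. One library stands apart in Rpl29 (264 CPM in Igf1r-deleted replicate 1) and Rpl3 (125 CPM in control replicate 1), and Rpl7l1 is the only one of the 6 with every Igf1r-deleted library above both controls.

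Only 5 members had a log2 fold change above 0. They were Rpl9, Rpl34, Rpl38, Rpl7l1 and Rpl29. Rpl9 measured 3.97 and 3.71 CPM in controls and 3.68, 4.40 and 5.90 CPM after deletion (0.28 ± 0.26, SE). Rpl34 measured 2.36 and 2.67 CPM against 2.44, 3.17 and 3.20 CPM (0.22 ± 0.27, SE), and Rpl38 measured 0.633 and 1.39 CPM against 1.22, 1.06 and 1.20 CPM (0.19 ± 0.44, SE). The groups overlapped in these 3 genes, and each value was about the size of its error or smaller. Rps21 came next in this order, at −0.014.

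The paralogs are given beside their core partners. Rpl7l1, related to Rpl7 and known as a factor of large subunit assembly, lies on chr17:46773907-46782672 of mm10, on the minus strand. It measured 41.3 and 43.6 CPM in controls and 49.9, 47.8 and 45.2 CPM after deletion, and it was the only tested member with all Igf1r-deleted libraries above both controls (0.16 ± 0.097, SE; adjusted p = 0.4996 with edgeR). Per kb, the Rpl7l1 level was 28.5% and 34.5% of that of Rpl7 in controls and 43.7%, 47.6% and 41.8% after deletion. The difference of Rpl7l1 from the rest of the family was not tested.

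Rps4l is a single-exon gene on chr6:148354656-148355598 of mm10, on the plus strand, and is related to the X-linked Rps4x. It measured 164 and 125 CPM in controls and 105, 100 and 53.9 CPM after deletion, without overlap (−0.74 ± 0.27, SE, adjusted p = 0.372 with edgeR). Rps4x measured 200 and 191 CPM in controls and 162, 133 and 126 CPM after deletion (−0.48 ± 0.13, SE). The Rps4l level per kb was 1.42 and 1.13 times that of Rps4x in controls and 1.12, 1.30 and 0.738 times after deletion, and Igf1r-deleted replicate 3 stood apart from the other 4 libraries. Of the words of the Rps4x mRNA, 78.4% are shared with other genes.

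Rpl22 and Rpl22l1 are a pair in which each can act in place of the other in part. Rpl22 measured 174 and 184 CPM in controls and 152, 124 and 138 CPM after deletion (−0.38 ± 0.11, SE), without overlap, and only 9.85% of its words are shared. Rpl22l1 measured 10.6 and 9.17 CPM in controls and 8.84, 5.25 and 9.27 CPM after deletion, with overlap. Per kb it stood at 6.21% to 9.83% of the Rpl22 level, with the controls inside the range of the Igf1r-deleted libraries.

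The pair of Rps27 and Rps27l gave the reverse order of level, as the paralog, known as a p53 target, exceeded the core gene 3.04- and 5.09-fold per kb in controls and 6.65-, 8.90- and 5.65-fold after deletion. Rps27l measured 6.71 and 7.07 CPM in controls and 9.58, 4.55 and 5.29 CPM after deletion, with overlap. Rpl39, an X-linked gene for a protein of the exit tunnel, measured 42.5 and 34.9 CPM in controls and 39.7, 26.9 and 31.9 CPM after deletion. Rpl39l stood at 0.808% to 2.22% of the Rpl39 level per kb, on 5 to 19 counts a library. Rpl36a, also X-linked, measured 5.90 and 5.10 CPM against 4.76, 3.54 and 3.92 CPM, without overlap (−0.43 ± 0.22, SE).

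The same direction was seen where few words are shared with other genes. The 7 tested members with under 20% of shared words included Rps3, Rps20, Rpl8, Rpl22, Rps15a and Rpl39l, named here because the share chose them. All 7 lay below 0 (median −0.43), 6 without overlap and 6 at an unadjusted p under 0.05, against 14.9% and 6.75% of all genes. Among the 19 members with 80% or more of shared words, 18 lay below 0 and 11 did not overlap and were lower (median −0.41). Members with a mean count of at least 500 had a median of −0.40 (53 of 55 below 0), and those with fewer counts one of −0.33 (23 of 26 below 0). Across the 81 tested members, rho of the log2 fold change with the share of shared words was −0.084, and with the level per kb −0.26, as descriptions of genes measured in the same libraries.

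Outside the family, genes with short mRNAs also lay lower, by less. The 846 tested genes outside the family with a main mRNA under 1000 bases had a median log2 fold change of −0.086, those of 1000 to 2000 bases one of −0.016, those of 2000 to 4000 bases 0.021 and longer ones 0.040. Among the 708 outside the family with at least 50% of their words shared, the median was 0.0049. Of the 846 short genes, 57 were lower at an unadjusted p under 0.05, close to the share among all genes tested (6.75%), and 12 were higher (5.65% of all genes were). The part of mRNA length in the values of the members was not tested.

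Ribosomal components outside the rule were examined as well. Fau encodes a small subunit protein as a fusion with a ubiquitin-like protein, and Gnb2l1 encodes RACK1, a scaffold on the small subunit. Gnb2l1 measured 602 and 542 CPM in controls and 510, 381 and 357 CPM after deletion (−0.46 ± 0.17, SE). Fau measured 20.2 and 18.1 CPM against 16.2, 14.2 and 12.5 CPM (−0.42 ± 0.15, SE). Neither overlapped between the groups, and both were lower at an unadjusted p under 0.05. Rpl36al, a paralog of Rpl36a, measured 55.5 and 52.2 CPM against 54.6, 48.4 and 47.2 CPM, with overlap (−0.10 ± 0.11, SE), and its level per kb was 11.5 to 16.7 times that of Rpl36a. Of the words of the Rpl36a mRNA 88.3% are shared, against 26.0% for Rpl36al, so that this ratio is uncertain.

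Other genes whose mRNAs are known to carry a TOP motif also lay mostly lower. Start regions were at hand for 11 of them, and 5 (45.5%) held the tract of a C and at least 5 pyrimidines, against 32.8% of all genes, so that the list rests on knowledge of these mRNAs and not on the search. Of 16 tested, 14 lay below 0 (median −0.42). In 11 all Igf1r-deleted libraries lay below both controls, against 14.9% of all genes, and in 1 above both, against 16.0%. At an unadjusted p under 0.05, 10 were lower, against 6.75% of all genes, and 0 higher, against 5.65%. Eef1a1, the factor that brings aminoacyl-tRNA to the ribosome, measured 3651 and 3448 CPM in controls and 2952, 2353 and 2340 CPM after deletion. Eef2, the translocation factor, had a log2 fold change of −0.53 ± 0.14 (SE), the poly(A)-binding protein gene Pabpc1 one of −0.61 ± 0.17 and the initiation factor genes Eif3e and Eif3f −0.61 ± 0.14 and −0.51 ± 0.10, all with an adjusted p of 0.354 with edgeR. DESeq2 gave Eef1a1 an adjusted p of 0.0473, Eef2 one of 0.00852, Eif3e one of 0.0359, Eif3f one of 0.00130 and Pabpc1 one of 0.0594. Vim, the intermediate filament gene whose mRNA has such a start, stood at −0.49 ± 0.17 (SE).

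Genes that build ribosomes, rather than form them, lay mostly on the other side of 0. Of 76 tested, 18 lay below 0 and 58 above (median 0.17), with 4 lower and 9 higher at an unadjusted p under 0.05, against 6.75% and 5.65% of all genes. In 25 of these genes each of the 3 Igf1r-deleted libraries exceeded both control libraries, against 16.0% of all genes. Nle1, a factor of large subunit maturation, measured 4.49 and 4.64 CPM in controls and 6.15, 6.31 and 7.46 CPM after deletion (0.54 ± 0.19, SE). Polr1b, which encodes the second largest subunit of RNA polymerase I, measured 9.44 and 11.8 CPM against 12.2, 15.7 and 15.4 CPM (0.44 ± 0.18, SE). The box C/D protein gene Nop58 went the other way, with 47.1 and 40.0 CPM in controls and 39.8, 26.0 and 26.6 CPM after deletion (−0.50 ± 0.20, SE). Rrs1, a factor of large subunit assembly, measured 80.1 and 42.1 CPM against 46.9, 43.6 and 39.3 CPM, and control replicate 1 alone stood apart.

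Of 34 initiation and elongation factor genes outside the TOP list, 2 were lower and 1 was higher at an unadjusted p under 0.05 (median 0.043). Over all genes tested, 6.75% were lower and 5.65% higher at that threshold, and these shares stand beside each list in this paragraph. The 76 mitochondrial ribosomal protein genes, which encode the separate ribosome of that organelle, had a median of 0.020, with 0 lower and 4 higher at an unadjusted p under 0.05, and 0 at an adjusted p under 0.05. Of 78 respiratory chain genes, 58 lay below 0 (median −0.12), with 7 lower and 0 higher at an unadjusted p under 0.05. Cox7a2l, a factor of respiratory supercomplexes, measured 186 and 155 CPM in controls and 128, 101 and 114 CPM after deletion (−0.58 ± 0.13, SE).

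**Figure D5:**
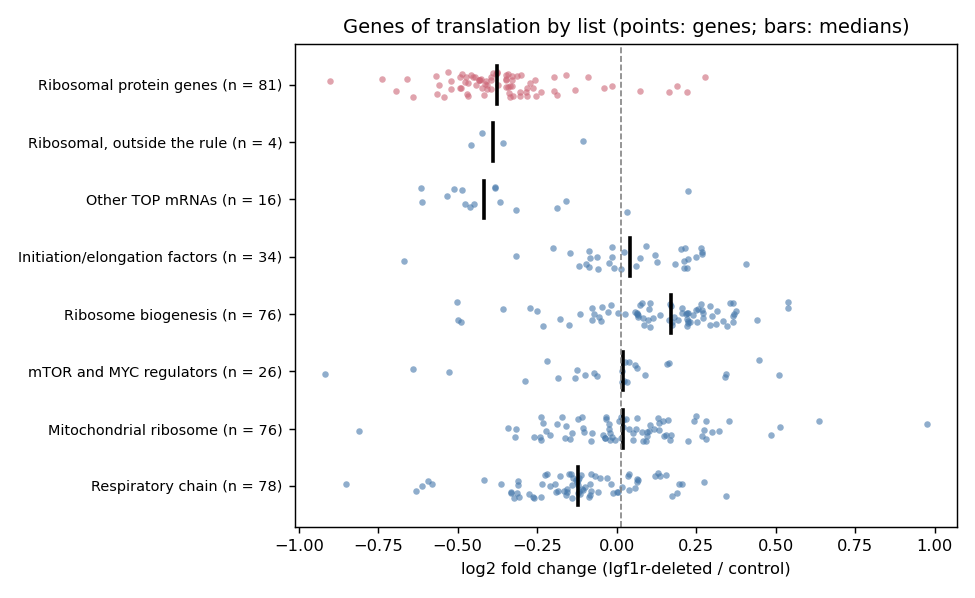
Log2 fold change (Igf1r-deleted over control) of every tested gene in 8 lists, with bars for the median of each list and a dashed line at the median of all genes tested (0.015). The ribosomal protein genes (−0.38) and the other TOP mRNAs (−0.42) lie to the left, ribosome biogenesis genes to the right (0.17), and the mitochondrial ribosome near 0 (0.020).

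Genes on a list of mTOR and MYC regulators lay in both directions. The list also holds the p53 pathway genes Trp53, Mdm2 and Cdkn1a. Of its 26 genes, 4 were lower and 3 higher at an unadjusted p under 0.05, against 6.75% and 5.65% of all genes (median 0.020). Cdkn1a was among the 4 and Trp53 among the 3. Myc, which drives transcription of ribosomal protein genes, measured 60.1 and 35.7 CPM in controls and 32.4, 20.9 and 22.7 CPM after deletion (−0.92 ± 0.26, SE, adjusted p = 0.354 with edgeR). The Myc value rested on which control was used, as dropping control replicate 1 gave −0.50 and dropping control replicate 2 gave −1.26, and its adjusted p was 0.0177 with the replicate number as a block. The libraries of Myc stood in the same order as the median deviations of the family. Other genes had that order too, among them Cdkn1a, Nop58, Eif1 and Cox7a2l, chosen for their size of change, and the fibroblast marker Tcf21. The share of all genes tested with that order was not counted, and the part of Myc in the values of the members was not tested. Mxi1, which opposes MYC, measured 126 and 83.5 CPM against 71.1, 73.1 and 73.6 CPM (−0.53 ± 0.16, SE), a value that became −0.21 when control replicate 1 was dropped and −0.80 when control replicate 2 was. Mycn lay in the other direction, at 10.4 and 11.5 CPM in controls and 12.3, 16.6 and 15.9 CPM after deletion (0.45 ± 0.17, SE). Gabpb1, a subunit of an ETS family factor, measured 20.6 and 22.7 CPM against 27.4, 26.9 and 28.1 CPM (0.34 ± 0.10, SE).

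Markers of other cell types were present. The 6 leukocyte markers summed to 466 and 331 CPM in controls and 385, 296 and 177 CPM after deletion, and all 6 lay below 0. Cd79a and Cd68 did so at an unadjusted p under 0.05, against 6.75% of all genes. The 6 epithelial markers summed to 715 and 714 CPM against 509, 744 and 317 CPM, and the 5 endothelial markers to 448 and 433 CPM against 413, 624 and 219 CPM, so that Igf1r-deleted replicate 2 was high in both and replicate 3 low, while both were low in ribosomal protein genes. The 7 fibroblast markers, mostly collagen by level, summed to 24589 and 26669 CPM in controls and 26267, 20452 and 23270 CPM after deletion, and 2 of them moved apart at an unadjusted p under 0.05. Acta2, the smooth muscle actin gene of myofibroblasts, measured 407 and 655 CPM in controls and 764, 1067 and 907 CPM after deletion (0.78 ± 0.23, SE). Tcf21, a transcription factor gene of lipofibroblasts, measured 1662 and 1168 CPM against 1002, 902 and 962 CPM (−0.57 ± 0.16, SE). Both had an adjusted p of 0.354 with edgeR, and neither overlapped between the groups. The libraries of Tcf21 stood in the order of the median deviations of the ribosomal protein genes, and those of Acta2 in the reverse order. At a later age, the study reported a lower proportion of ADRP-stained lipofibroblasts and a higher one of αSMA-stained myofibroblasts among GFP-labeled cells after deletion. Of the erythroid markers, Hbb-bs and Hbb-bt had 0 counts in every library. All 18 proliferation genes had a log2 fold change above 0, with 6 higher at an unadjusted p under 0.05, against 5.65% of all genes. The part of these markers in the values of the members was not tested.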

How the data were processed

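RNA was taken from GFP-sorted P6 lung cells of 2 control and 3 Igf1r-deleted libraries and sequenced as paired 150-base reads. The authors used Trim Galore for trimming, Bowtie2 for alignment to mm10 and Bioconductor's GenomicAlignments for counting. The raw counts that they deposited, for 23478 genes, were used in all 5 columns. Alignment settings, gene annotation and the use of strand are not given in the sources used here.

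The main test was the two-sided quasi-likelihood F test of edgeR 4.0.16 under R 4.3.3 (limma 3.58.1), on genes kept by filterByExpr and scaled by TMM. Genotype was the only term, and p-values were adjusted by Benjamini-Hochberg over 15298 genes. Log2 values used a prior count of 2. On simulated counts for this comparison (15080 genes), all 113 genes changed 2-fold and all 87 changed 4-fold were called. Those counts gave every gene the same fixed spread between libraries, and only genes above a set level were changed. The recovery therefore does not measure power in the real libraries, where Igf1r itself (log2 fold change −0.93) had an adjusted p of 0.354 with edgeR. Library totals of 35116766 to 37597857 counts set the depth. The spread between libraries, not counting noise, sets the precision.

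Gene positions, exons and shared 31-base words came from GENCODE M21 on mm10. Words were compared among annotated transcripts, since no genome sequence was used. Of the symbols in the table, 22121 matched and 1357 did not, and all 84 members matched. CPM per kb divides by the union of a gene's exons. Promoters came from RefSeq on GRCm38.p6.

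Genes were named by level per kb (the 5 highest and lowest), by log2 fold change (the 6 at each end), from a fixed list of members and paralogs, and, for comparison lists, by size of change. The members, lists and this rule were chosen with earlier results of these data known, and no list was tested as a set. Other genes named, including those that DESeq2 called, departed from the family or shared few words, were chosen after their values were seen. Alternatives were DESeq2 1.42.0, limma voom, robust empirical Bayes, other size factors, other filters, a replicate block, each library left out, subsets of members and, added after seeing the data, the family without its 7 paralogs. A few genes are not reported here by name and are left out of the plots that label genes, but stay in the counts and medians.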

Additional observations from a re-analysis of the deposited data

How the results depend on the processing

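The members' medians and their number below 0 kept their direction under every alternative run. With the looser filter, 2 members lay above both controls in every Igf1r-deleted library, and without the 7 paralogs 0 did. With library totals 1343 genes were higher at an unadjusted p under 0.05. At an adjusted p under 0.05, DESeq2 called 6 members and 200 genes, and the replicate block 136 genes and 0 members. The block left 46 members lower at an unadjusted p under 0.05 (42 without it); replicate numbers are shared by 2 pairs (correlations of deviations 0.208 and 0.122) and nothing in the labels says that they mark a shared litter or day. Dividing by the longest coding transcript gave a median level of 29.1 CPM per kb. With limma voom, Rpl29 stood at −0.035, and with library totals Rps21 stood at 0.056 and Rps29 at 0.029. The cause of these changes was not tested.

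With each library left out in turn, members lower at an unadjusted p under 0.05 numbered 16 to 59, members above both controls 1 to 3, all genes lower 252 to 1760, higher 181 to 1423, and genes at an adjusted p under 0.05 from 0 to 45 (45 without control replicate 2). The 16 came without control replicate 1 and the 59 without Igf1r-deleted replicate 1. The members' median ranged from −0.48 to −0.31. Log2 fold changes that changed sign ranged from −0.43 to 0.27 for Rpl29, −0.999 to 0.15 for Rpl39l, −0.28 to 0.29 for Rps21, −0.22 to 0.15 for Rps29, −0.27 to 0.85 for Rpl38, −0.49 to 0.11 for Rps27l, −0.90 to 0.034 for Rrs1 and −0.69 to 0.20 for Rpl3. Fewer than 100 counts a library limit 9 members, among them Rpl30, Rpl38, Rps21, Rps27 and Rps29.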
